A study of Homo sapiens with 8 samples.

Results

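The AU- and GU-rich-element binders described here are 9 genes, taken by symbol from the 57736 Ensembl gene IDs of the deposited count files: ELAVL1, ZFP36, ZFP36L1, ZFP36L2, HNRNPD, KHSRP, TIA1, TIAL1 and CELF1. All 9 were matched to an ID and counted in all 8 libraries, with a lowest count of 114. The cells were IMR90, a human fetal lung fibroblast line. An RNA-seq experiment compared an ADAR1 control line (Ctrl) with an ADAR1 knockdown line (KD). A HuR RIP-seq experiment (RNA immunoprecipitation followed by sequencing) compared shControl, shADAR1 and shHuR cells, each with 1 anti-HuR precipitate and 1 input library taken without antibody. The labels give no time, no dose, no hairpin sequence and no clone for these lines, and the hairpins are short hairpin RNAs that deplete the named mRNA. Each of the 8 groups held 1 library, so a difference between a pair of libraries has no replicate check, and its 95% interval covers counting error only.

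AU-rich elements are stretches of A and U in the 3′ untranslated region (UTR) of short-lived mRNAs. HuR (ELAVL1) binds U- and AU-rich RNA and is known for stabilising its targets. ZFP36 (tristetraprolin) and its relatives ZFP36L1 and ZFP36L2 bind the AUUUA core through CCCH zinc fingers and recruit deadenylases, HNRNPD (AUF1) and KHSRP (KSRP) are linked to decay, TIA1 and TIAL1 to translational silencing and stress granules, and CELF1 (CUGBP1) binds GU-rich elements. Several of these mRNAs carry such elements themselves, and the proteins are known to act on one another's mRNAs. In senescent fibroblasts this group is known for its control of mRNAs of secreted factors and of the cell cycle.

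The 3′ UTR letters are shown first, because the precipitation data below concern RNA recovered with a protein that binds them. For each gene the window of 30 bases that holds most copies of a searched motif is given 5′ to 3′, from the GENCODE 29 annotation on GRCh38, with 1 transcript a gene. The capitals mark the copies of the motif. Motifs were searched on the transcribed strand only and overlapping copies were counted. For ELAVL1 the motif is UAUUUAU, for ZFP36, ZFP36L1, ZFP36L2, TIA1 and HNRNPD it is AUUUA, for KHSRP and TIAL1 it is a run of 7 U, and for CELF1 it is UGUUUGU.
ELAVL1: uUAUUUAUaccUAUUUAUgUAUUUAUUUAU
ZFP36: ccuuuAUUUAugacgacuuuAUUUAuucua
ZFP36L1: cuuAUUUAacuuaucaaaacguAUUUAuug
TIA1: agauacaauguAUUUAUUUAaaagauucau
ZFP36L2: ugaaaacuAUUUAacuuAUUUAuuaucuug
HNRNPD: uguagccauuaagAUUUAuaugaauauuuu
KHSRP: gugaaaaaucUUUUUUUUUUccauuuuguu
TIAL1: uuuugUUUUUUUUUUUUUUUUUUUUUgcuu
CELF1: uaaaguuugcugUGUUUGUaaccagugugu

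AUUUA was present in 8 of the 9 UTRs, against 69.6% of 12136 protein-coding genes of any UTR length. Among genes with a UTR length within 1.25-fold of each binder's own, the share with AUUUA ran from 68.6% (ZFP36) to 99.3% (ELAVL1). Presence alone therefore does not set the binders apart from genes of like length. ELAVL1 held 13 copies in 4904 bases and 5 of the longer UAUUUAU, against a median of 11 and 1 in 874 genes whose UTR length was within 1.25-fold of its own. ZFP36 held 5 AUUUA in 713 bases and ZFP36L1 held 8 in 1871 bases, against medians of 1 and 4 in genes of like length. TIA1 held 13 in 3275 bases, against a median of 7. ZFP36L2 (5 copies), TIAL1 (7), CELF1 (3) and HNRNPD (2) stood within 1 copy of the median for their length, and KHSRP held 0. The longer UAUUUAU had 3 copies in each of ZFP36, ZFP36L1 and ZFP36L2, against a median of 0 for each length. TIAL1 held 48 overlapping runs of 7 U, against a median of 7, and KHSRP held 6, against a median of 0. ZFP36L2 held 9 such runs and ZFP36L1 held 8, against a median of 2 for each.

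The libraries held 28390935 to 50711218 counts. All 7 fibroblast markers were detected in every library, with a summed level of 2444 to 12249 counts per 1000000 (CPM), while the summed epithelial markers reached at most 41.6, the endothelial at most 11.3, the leukocyte at most 5.35 and the neuronal at most 0.545 CPM. Both knockdown targets followed the labels. ADAR, which encodes the enzyme ADAR1, stood 7.01-fold below control in the RNA-seq knockdown and 2.93-fold below in the shADAR1 input, and ELAVL1 stood 6.59-fold below in the shHuR input. These libraries include no mock precipitate, so unspecific recovery and binding to HuR cannot be told apart from precipitate over input in a single line. The labels do not say whether lines came from separate cultures, so the p-values below reflect no more than the spread among these libraries, which may be technical.

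Levels below, except those given per length, are CPM with TMM scaling (the trimmed mean of log ratios sets the library size), computed separately for the 2 RNA-seq libraries and for the 6 libraries of the precipitation experiment, so that RNA-seq and input levels do not share a scale. Per transcript length, the deposited FPKM values of the RNA-seq control placed TIA1 (66.4), HNRNPD (58.8) and CELF1 (56.7) highest, followed by KHSRP (32.3), ELAVL1 (23.3) and TIAL1 (20.4). The 3 zinc finger genes were lowest, with FPKM of 5.26 for ZFP36L1, 4.16 for ZFP36L2 and 1.89 for ZFP36. Per kilobase of the annotated transcript, with CPM scaled by total counts, the RNA-seq control placed CELF1 (43.0 CPM per kb) highest, then HNRNPD (25.4), TIA1 (20.5), KHSRP (9.85), ELAVL1 (8.64), TIAL1 (4.91), ZFP36L1 (4.71), ZFP36L2 (3.89) and ZFP36 (1.63). The place of TIA1 thus depends on the length used. By the same measure the shControl input had KHSRP (111.6 CPM per kb) and ZFP36L1 (103.0) highest, then CELF1 (49.6), ZFP36L2 (37.3), HNRNPD (34.5), ELAVL1 (21.8), TIAL1 (17.5), TIA1 (11.3) and ZFP36 (10.4). With 1 library a group, no spread was measured by which neighbours in these orders could be told apart.

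The control libraries of the experiments differed with GC content. The log2 ratio of the shControl input to the RNA-seq control was taken over protein-coding genes with at least 50 counts in both libraries. Its median was -0.94 in the lowest of 4 equal groups of 2749 genes by GC content and 1.55 in the highest. Among the binders this ratio was 3.50 for KHSRP (59.2% GC) and -0.86 for TIA1 (36.6% GC). ZFP36L1, at 49.5% GC, stood at 4.45. The part of GC content in the order of levels was not tested.

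**Figure D1:**
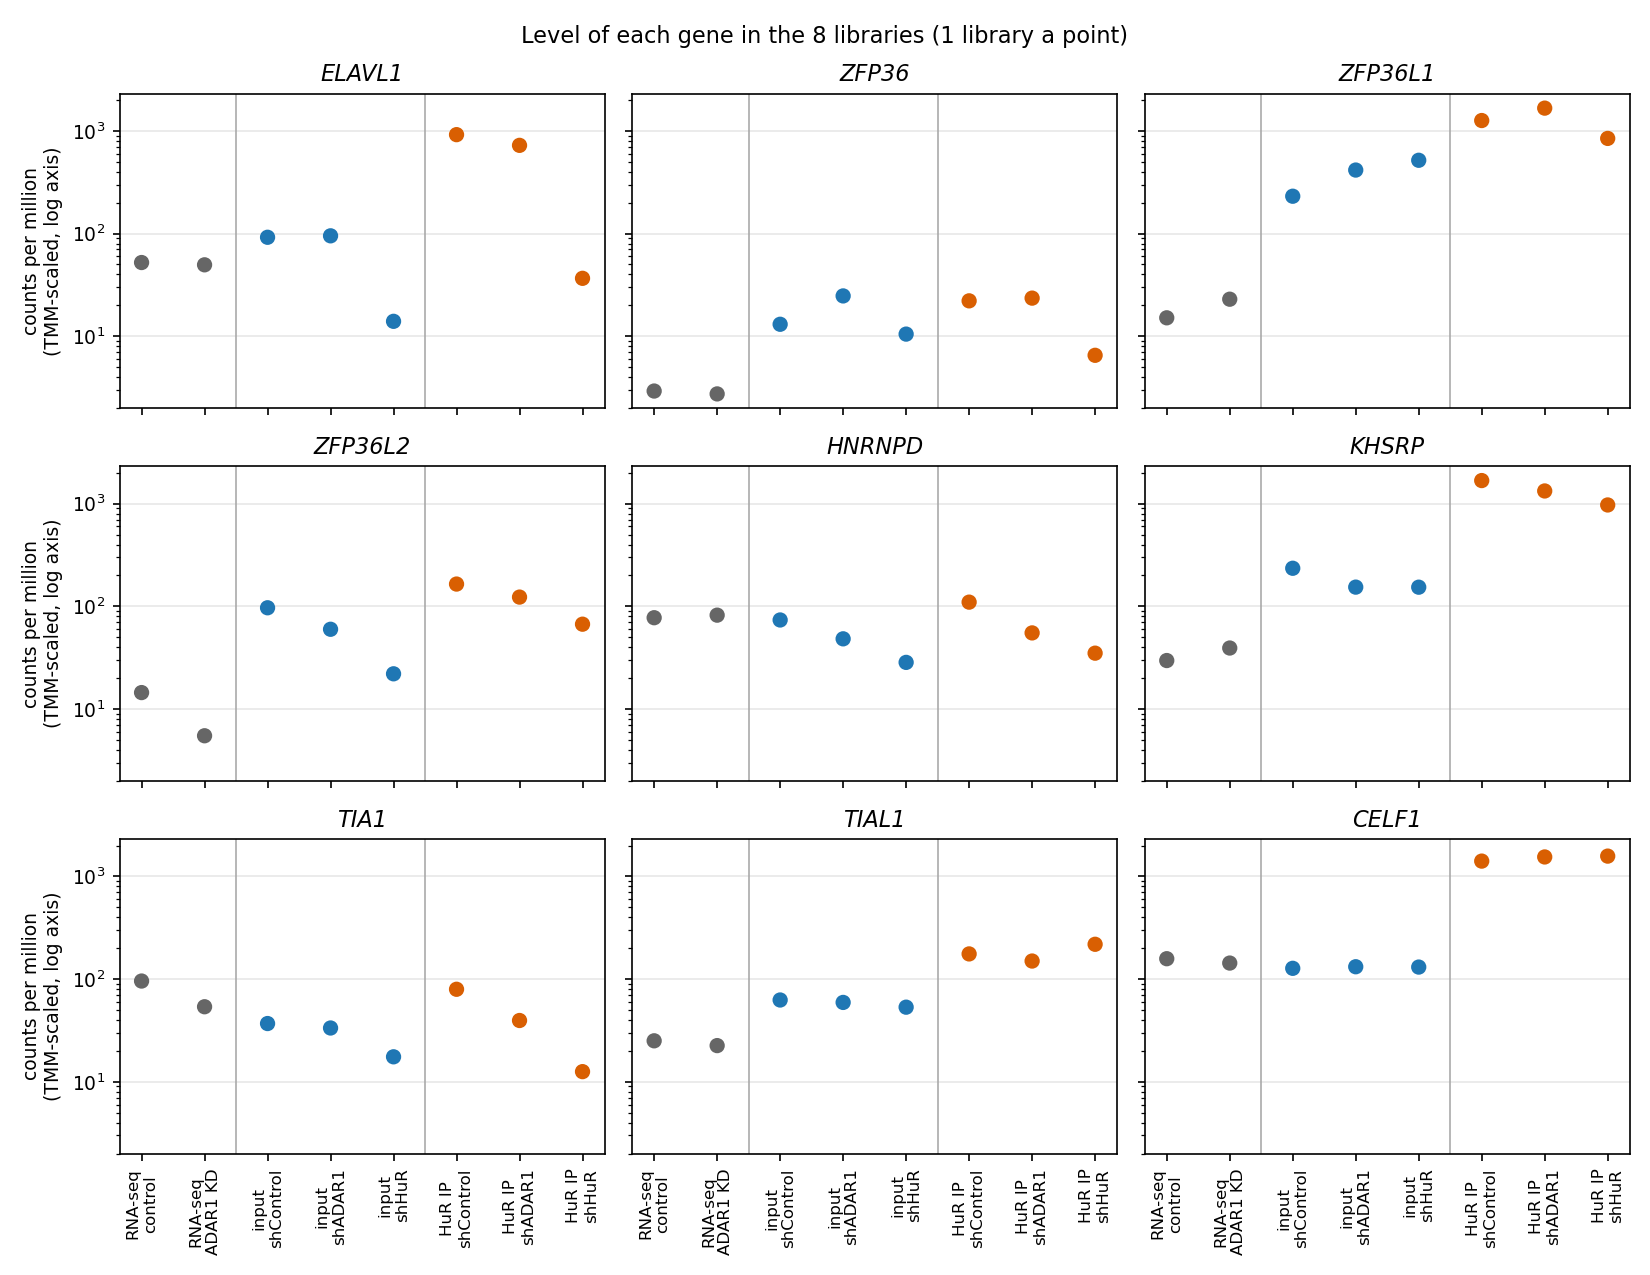
Level of each of the 9 genes in the 8 libraries, as TMM-scaled CPM on a log axis; grey points are the RNA-seq pair, blue the inputs and orange the anti-HuR precipitates, with 1 library a point. ELAVL1 stands at 14.0 in the shHuR input and at 919.7 in the shControl precipitate, while CELF1 stands between 127.3 and 131.9 in the 3 inputs.

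ELAVL1 (ENSG00000066044), the HuR gene and the target of the shHuR hairpin, was close to its control level when ADAR1 was depleted and was 6.59-fold lower in the shHuR input. In the RNA-seq pair its level was 52.3 CPM without and 49.6 CPM with knockdown of ADAR1. The shControl, shADAR1 and shHuR inputs held 92.1, 95.1 and 14.0 CPM. Among the inputs only the shHuR library stood apart. The log2 ratio was -0.07 (-0.16 to 0.01) in the RNA-seq pair, 0.05 (-0.02 to 0.11) for shADAR1 and -2.72 (-2.84 to -2.60) for shHuR.

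ZFP36L2 (ENSG00000152518), an mRNA decay factor, was lower than its control in the RNA-seq knockdown and in both depleted inputs. In the RNA-seq pair its level was 14.5 CPM without and 5.49 CPM with knockdown of ADAR1. The shControl, shADAR1 and shHuR inputs held 96.9, 59.8 and 22.0 CPM. The RNA-seq ratio was 2.63-fold lower (log2 -1.40, -1.61 to -1.19), and it was the 1 of the 9 genes past 2-fold in that pair, where 7.71% of 13235 genes were that much lower and 8.31% higher. In the inputs it was 1.62-fold lower in shADAR1 (log2 -0.70, -0.77 to -0.62) and 4.40-fold lower in shHuR (-2.14, -2.23 to -2.04).

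ZFP36L1 (ENSG00000185650), its close relative, was higher than its control in the RNA-seq knockdown and in both depleted inputs. In the RNA-seq pair its level was 15.1 CPM without and 23.0 CPM with knockdown of ADAR1. The inputs held 231.1 CPM in shControl, 415.7 in shADAR1 and 517.6 in shHuR. The fold was 1.52 in the RNA-seq pair (log2 0.60, 0.46 to 0.75), 1.80 for shADAR1 (0.85, 0.81 to 0.88) and 2.24 for shHuR (1.16, 1.13 to 1.19). The 2 relatives thus stood on opposite sides of the control in each of these pairs.

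ZFP36 (ENSG00000128016), an immediate early gene that encodes tristetraprolin, had the fewest counts of the family. In the RNA-seq pair ZFP36 stood at 2.93 (control) and 2.74 (knockdown) CPM. The inputs held 13.1 CPM in shControl, 24.7 in shADAR1 and 10.5 in shHuR. The shADAR1 input was 1.89-fold higher (log2 0.92, 0.77 to 1.06) and the shHuR input 1.25-fold lower (-0.32, -0.49 to -0.15). After trends with GC content and length were taken out the shADAR1 input was past 2-fold (1.16). The RNA-seq ratio was -0.09 (-0.46 to 0.28), whose interval does not reach that of the shADAR1 input.

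HNRNPD (ENSG00000138668) encodes AUF1, whose isoforms bind AU-rich mRNAs. Its level was 77.5 and 82.1 CPM in the RNA-seq control and knockdown, and 73.7, 48.3 and 28.5 CPM in the shControl, shADAR1 and shHuR inputs. The shHuR input was 2.59-fold lower (log2 -1.37, -1.46 to -1.28) and the shADAR1 input 1.53-fold lower (-0.61, -0.69 to -0.53). The RNA-seq ratio was 0.08 (0.01 to 0.15).

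KHSRP (ENSG00000088247) encodes KSRP, a KH-domain protein linked to decay. It had 29.7 and 39.3 CPM in the RNA-seq pair and 234.9, 153.9 and 153.7 CPM in the shControl, shADAR1 and shHuR inputs. Both depleted inputs stood 1.53-fold below shControl (log2 -0.61 in each), while the RNA-seq knockdown was 1.32-fold higher than its control (0.40, 0.30 to 0.51). The direction therefore differed between the experiments for KHSRP, and for HNRNPD by a smaller ratio on the RNA-seq side.

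TIA1 (ENSG00000116001) and TIAL1 (ENSG00000151923) encode related proteins of stress granules. TIA1 stood at 95.8 and 53.8 CPM in the RNA-seq control and knockdown, and at 36.9, 33.4 and 17.5 CPM in the shControl, shADAR1 and shHuR inputs. The RNA-seq knockdown stood 1.78-fold below its control (log2 -0.83, -0.90 to -0.76), a value that was -0.23 after trends with GC content and length were taken out. In the shHuR input it was 2.11-fold lower (-1.08, -1.19 to -0.96), and in the shADAR1 input it was at -0.14 (-0.25 to -0.04). TIAL1 had 25.1 and 22.5 CPM in the RNA-seq pair and 62.6, 59.3 and 53.3 CPM in the inputs, with no log2 ratio beyond -0.23.

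CELF1 (ENSG00000149187), which binds GU-rich elements and regulates splicing and decay, varied least in the inputs. It had 158.0 and 143.3 CPM in the RNA-seq pair and 127.3, 131.9 and 131.0 CPM in the inputs. Its log2 ratios were -0.14 (-0.19 to -0.09) in the RNA-seq pair, 0.05 (-0.00 to 0.10) for shADAR1 and 0.04 (-0.01 to 0.09) for shHuR.

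By the 2-fold limit, 0 of the 9 genes were called in the shADAR1 input, where 9.14% of 13192 genes were higher and 10.3% lower. In the shHuR input 1 was higher (ZFP36L1) and 4 were lower (ELAVL1, ZFP36L2, HNRNPD and TIA1), against 12.2% higher and 15.6% lower of 13390 genes. Since ELAVL1 is the hairpin's target, its place among these 4 is the check of the knockdown. The median log2 ratio of the 9 genes was -0.61 in the shHuR input, against -0.02 over all genes tested. The shADAR1 and shHuR comparisons use the same shControl library, so they are given side by side and not set against one another. In such bulk libraries, fewer cells that express a gene and less of its RNA per cell cannot be told apart.

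**Figure D2:**
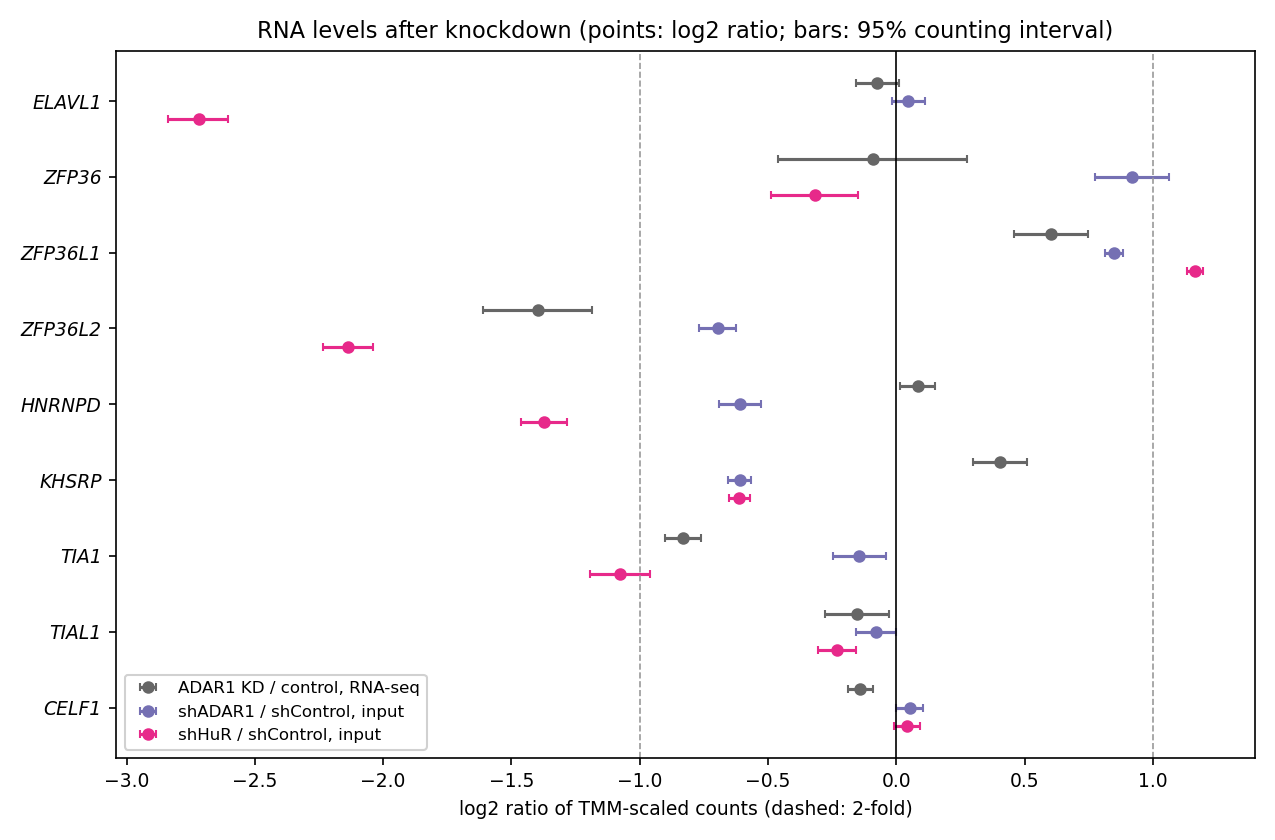
Log2 ratio of TMM-scaled counts for the 9 genes after knockdown, in the RNA-seq pair (grey), the shADAR1 input (purple) and the shHuR input (pink), each against its control; bars are 95% intervals of counting error and dashed lines mark 2-fold. ZFP36L2 lies left of 0 and ZFP36L1 right of 0 in all 3 comparisons, and ELAVL1 lies at -2.72 in the shHuR input.

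ADAR1 knockdown could be tested only over both experiments together (4 libraries, 1 residual degree of freedom). None of the 9 genes passed with edgeR's quasi-likelihood test and Benjamini-Hochberg adjustment over all genes. That test called 13 genes higher (0.0813%) and 2 lower (0.0125%) of 15994, and 761 had an unadjusted p under 0.05. ZFP36L2 was the 1 binder with an unadjusted p under 0.05, with a log2 change of -1.05 (SE 0.43) and an edgeR adjusted p of 0.977. ZFP36L1 had a log2 change of 0.72 (SE 0.44) and ELAVL1 of -0.02 (SE 0.42). DESeq2 also called 0 of the 9 genes, with 92 genes higher and 24 lower over the whole table.

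In the shControl and shADAR1 lines, CELF1, ELAVL1, KHSRP and ZFP36L1 had the highest ratios of anti-HuR precipitate to input among the binders. CELF1 stood at 1410 CPM in the shControl precipitate, 1548 in shADAR1 and 1577 in shHuR, which is 11.1-fold, 11.7-fold and 12.0-fold over the input of the same line. KHSRP had 1679, 1329.8 and 971.4 CPM in the same precipitates, or 7.15-fold, 8.64-fold and 6.32-fold over input. Both mRNAs were thus still well above input in the line with little ELAVL1 mRNA. After trends with GC content and length were taken out, KHSRP had a log2 ratio of 3.99 in shControl and 2.92 in shHuR. Of all genes in shControl, 1.81% had a higher ratio than CELF1 and 6.36% a higher ratio than KHSRP.

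ELAVL1 mRNA itself had 919.7, 723.4 and 36.7 CPM in the shControl, shADAR1 and shHuR precipitates. Over input it was 9.99-fold higher in shControl (log2 3.32, 3.28 to 3.37), with 2.55% of genes above it, and 7.61-fold higher in shADAR1. In shHuR, where 742 precipitate counts stood against 674 input counts, it was 2.62-fold higher (1.39, 1.24 to 1.54). ZFP36L1 had 1262, 1667 and 845.2 CPM in the precipitates, or 5.46-fold, 4.01-fold and 1.63-fold over input. The shHuR ratio was the lowest of the 3 lines for both genes.

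TIAL1 had 175.9, 149.96 and 218.3 CPM in the shControl, shADAR1 and shHuR precipitates and was 2.81-fold, 2.53-fold and 4.10-fold over input. ZFP36L2 had 164.8, 123.1 and 67.0 CPM and was 1.70-fold, 2.06-fold and 3.04-fold over input. For these 2 genes the shHuR ratio was the highest. TIA1, at 79.6, 39.5 and 12.6 CPM, was 2.16-fold over input in shControl and 1.18-fold in shADAR1, and lay 1.39-fold under it in shHuR (log2 -0.48, -0.69 to -0.28). ZFP36, at 22.1, 23.5 and 6.52 CPM, went from 1.69-fold over input in shControl (0.76, 0.60 to 0.91) to 1.61-fold under it in shHuR (-0.69, -0.97 to -0.41). HNRNPD, at 109.9, 55.1 and 35.0 CPM, stayed within 1.49-fold of its input.

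At 2-fold, 6 of the 9 genes were higher in the precipitate in shControl, 6 in shADAR1 and 5 in shHuR, and 0 were lower in any line. Over all genes 30.7%, 30.0% and 25.5% were higher and 38.3%, 37.5% and 25.3% lower in the same lines. The median log2 ratio of the binders was 1.49, 1.34 and 1.39, against -0.25, -0.26 and -0.26 over all genes. Scaling by total counts in place of TMM shifted every precipitate ratio down, with medians over all genes of -1.11, -1.11 and -1.25, and left 3 binders higher and 2 lower in shHuR. The log2 ratios then under 2-fold were those of TIA1 (0.23) and TIAL1 (0.62) in shControl, ZFP36L2 (0.18) and TIAL1 (0.48) in shADAR1, and ELAVL1 (0.39) and ZFP36L2 (0.61) in shHuR, and ZFP36 (-1.67) and TIA1 (-1.47) were lower in shHuR. After trends with GC content and length were taken out, TIA1 (-0.15) and TIAL1 (0.36) in shControl, TIAL1 (0.62) in shADAR1 and ELAVL1 (0.87) in shHuR fell short of the limit, while ZFP36 (2.09) and ZFP36L2 (1.13) in shControl passed it.

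**Figure D3:**
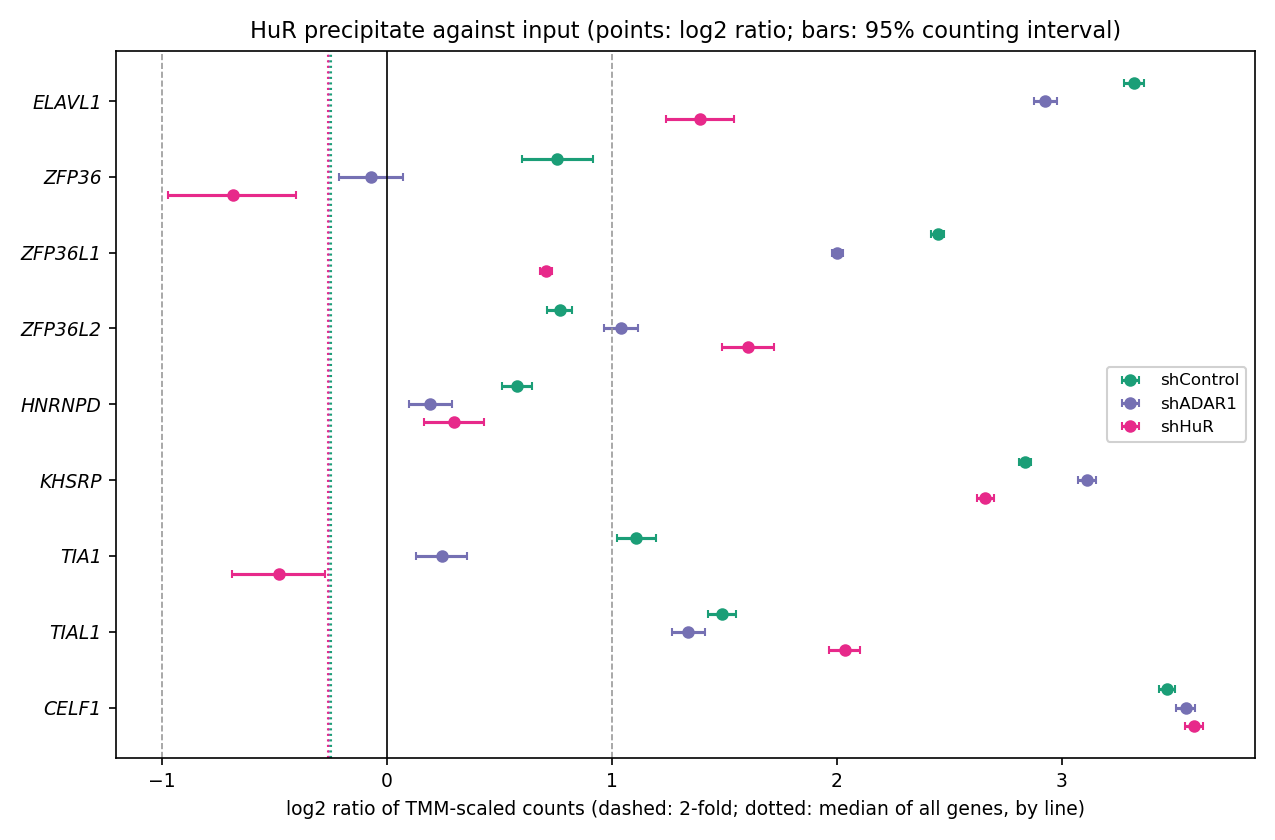
Log2 ratio of anti-HuR precipitate to input for the 9 genes in shControl (green), shADAR1 (purple) and shHuR (pink) cells; bars are 95% intervals of counting error, dashed lines mark 2-fold and dotted lines the median of all genes in each line. CELF1 and KHSRP lie right of 2.6 in all 3 lines, and ELAVL1 moves from 3.32 in shControl to 1.39 in shHuR.

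Over the 3 lines together (6 libraries, 2 residual degrees of freedom), edgeR's quasi-likelihood test with Benjamini-Hochberg adjustment found 6 binders higher in the precipitate and 0 lower, against 31.3% of 15342 genes higher and 32.7% lower. CELF1 rose by a log2 change of 3.59 (SE 0.26, edgeR adjusted p = 1.1e-05) and KHSRP by 2.92 (SE 0.26, edgeR adjusted p = 1.2e-05), each higher in 3 of 3 lines. ELAVL1 followed with 2.62 (SE 0.37, edgeR adjusted p = 0.000196), ZFP36L1 with 1.78 (SE 0.34, edgeR adjusted p = 0.00109) and TIAL1 with 1.68 (SE 0.27, edgeR adjusted p = 0.000451). ZFP36L2 rose by 1.19 (SE 0.28, edgeR adjusted p = 0.0038), a call lost with total counts (0.22, adjusted p = 0.480), without the line as replicate block (1.04, adjusted p = 0.154) and without the shADAR1 line (1.01, adjusted p = 0.156). ZFP36L1 was lost with total counts (0.82, adjusted p = 0.0603).
HNRNPD (0.41, SE 0.26), TIA1 (0.35, SE 0.34) and ZFP36 (0.06, SE 0.35) did not pass the edgeR test, with adjusted p of 0.189, 0.384 and 0.890. TIA1 passed when the shHuR line was left out (0.72, edgeR adjusted p = 0.0168), and ZFP36 passed as lower with total counts (-0.90, edgeR adjusted p = 0.0430).

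The question of the shHuR line is how recovery changes when HuR is depleted. Recovery over input of ELAVL1, ZFP36L1, TIA1 and ZFP36 was lower in shHuR than in shControl, by 3.81-fold, 3.34-fold, 3.01-fold and 2.72-fold. The log2 differences were -1.93 (-2.09 to -1.77), -1.74 (-1.78 to -1.70), -1.59 (-1.81 to -1.37) and -1.44 (-1.76 to -1.13). ZFP36L2 was 1.79-fold higher (0.84, 0.71 to 0.97). TIAL1 (0.54), CELF1 (0.12), KHSRP (-0.18) and HNRNPD (-0.28) stayed under 1.5-fold.
By that limit 4 of 9 binders were lower and 1 higher, where 23.5% of 12468 genes were lower and 39.4% higher, with a median of 0.25 over all genes. After trends with GC content and length were taken out, the same 4 stood at -1.70, -1.73, -0.70 and -2.21 in the order given. KHSRP was then lower (-1.07), TIAL1 higher (1.25) and ZFP36L2 short of the limit (0.43).

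The 4 binders with lower recovery in shHuR also had the most AUUUA per kilobase of 3′ UTR, a pattern noted after the values were seen and given without a test. The density was 7.01 copies per kb in ZFP36, 4.28 in ZFP36L1, 3.97 in TIA1 and 2.65 in ELAVL1. ZFP36L2 followed closely at 2.61, then TIAL1 (1.81), CELF1 (1.64), HNRNPD (1.19) and KHSRP (0). ZFP36L2, just below ELAVL1 in density, stood on the other side of 0. After trends with GC content and length were taken out, KHSRP, with 0 copies, also had lower recovery (-1.07), further from 0 than TIA1 (-0.70). The match of lower recovery with AUUUA density thus did not hold under that setting. Over 6093 genes with a UTR of 713 to 4904 bases, the range of the binders, the median log2 difference of shHuR against shControl was 0.80, 0.10, -0.31 and -0.60 from the lowest to the highest of 4 equal groups by AUUUA density. The share with recovery lower by 1.5-fold went from 10.04% to 51.1%. Median GC content of the transcripts fell by the same order from 56.2% to 40.6%, and its part in this was not tested. The pattern was not particular to AUUUA. Without matching for UTR length, genes with 0 and with 5 or more copies had medians of 0.84 and -0.22 for runs of 7 U. These medians were 0.43 and -0.30 for UGUUUGU, 0.50 and -0.47 for UAUUUAU, and 1.08 and -0.41 for AUUUA. For runs of 7 U the medians did not fall step by step, as genes with 1 to 4 copies stood at -0.35. UTRs with more copies were also longer, and the part of length was not tested.

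**Figure D4:**
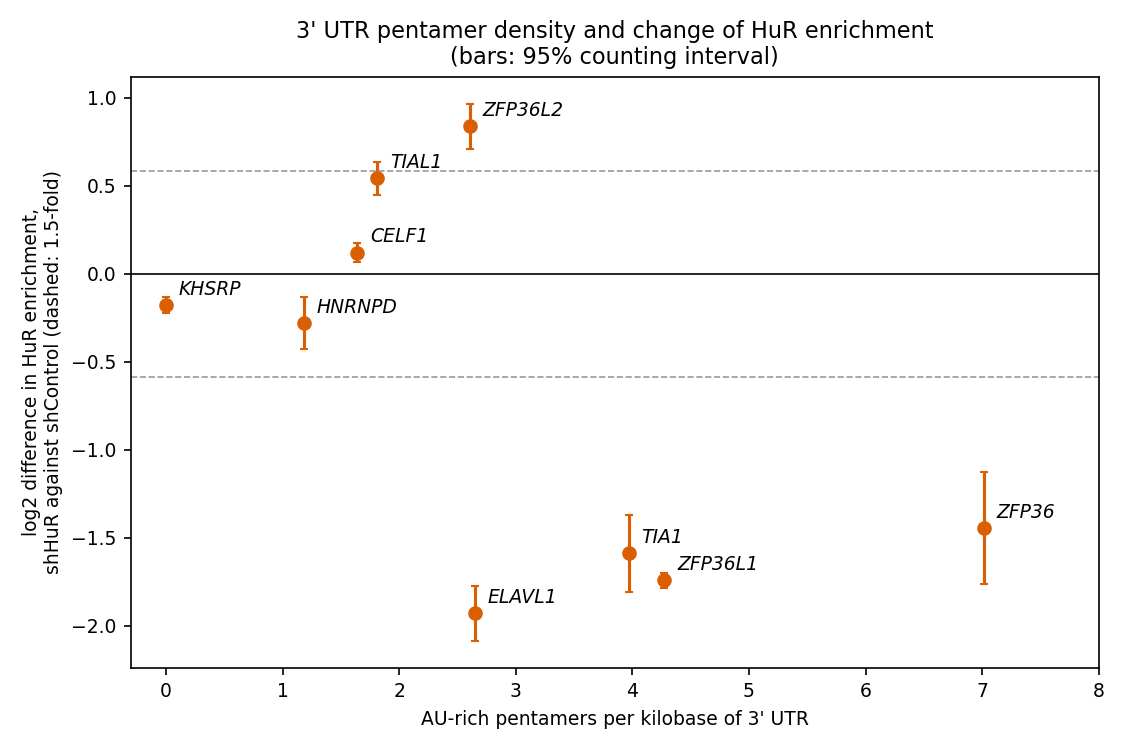
Log2 difference in precipitate over input between shHuR and shControl cells (vertical axis; bars are 95% intervals of counting error, dashed lines 1.5-fold) against AUUUA copies per kilobase of 3′ UTR (horizontal axis), 1 point a gene. ELAVL1, TIA1, ZFP36L1 and ZFP36, with 2.65 to 7.01 copies per kb, lie between -1.93 and -1.44, and ZFP36L2, with 2.61, lies at 0.84. The values are shown without removal of GC and length trends, after which KHSRP, with 0 copies, stands at -1.07.

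In shADAR1 cells, recovery over input was lower than in shControl for TIA1 (1.82-fold; log2 -0.87, -1.01 to -0.72) and ZFP36 (1.78-fold; -0.83, -1.04 to -0.62). These were 2 of the 9 binders, with 0 higher, where 14.2% of 12641 genes were lower and 19.7% higher. The precipitate of ZFP36 held a similar level in shADAR1 (23.5 CPM) and shControl (22.1 CPM) while its input was higher in shADAR1, and for TIA1 the precipitate was lower while the input was similar. TIA1 stood at -0.36 after trends with GC content and length were taken out, short of the limit. ZFP36L1 (-0.45), ELAVL1 (-0.39), HNRNPD (-0.39), ZFP36L2 (0.27), KHSRP (0.27), TIAL1 (-0.15) and CELF1 (0.08) stayed under 1.5-fold.

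Between the precipitates themselves, without regard to input, 1 binder was lower by 2-fold in shADAR1 than in shControl (TIA1, 2.01-fold), where 8.62% of 12318 genes were lower and 11.5% higher. HNRNPD lay just short of the limit at 1.99-fold lower. TIA1 was at -0.76, under the limit, after trends with GC content and length were taken out, and HNRNPD was past it with scaling by total counts (-1.10). In the shHuR precipitate 5 were lower: ELAVL1 (25.1-fold), TIA1 (6.34-fold), ZFP36 (3.39-fold), HNRNPD (3.14-fold) and ZFP36L2 (2.46-fold), where 17.6% of 12358 genes were lower and 28.8% higher. With trends with GC content and length taken out, KHSRP (-1.29) was past 2-fold lower as well, beside the same 5. As ELAVL1 is the hairpin's target, its place among these 5 reflects the knockdown and is no separate result. The shHuR inputs of these 5 were lower too, at log2 ratios of -2.72, -1.08, -0.32, -1.37 and -2.14 in the order given. Recovery over input was lower past 1.5-fold for ELAVL1, TIA1 and ZFP36. For HNRNPD it was lower but short of that limit (-0.28, -0.43 to -0.13), and for ZFP36L2 it was higher (0.84). After trends with GC content and length were taken out, HNRNPD stood on the other side of 0 (0.27) and ZFP36L2 was short of the limit (0.43).

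Among 20 other AU-, GU- or U-rich-element binders, the 7 neuronal HuR relatives and further CELF genes (ELAVL2, ELAVL3, ELAVL4, CELF3, CELF4, CELF5 and CELF6) had under 50 counts in the pairs compared. Of the 13 with enough counts, 0 differed by 2-fold in the RNA-seq pair or the shADAR1 input. In the shHuR input ZC3H12A, an RNase that degrades inflammatory mRNAs (regnase-1), was 3.27-fold higher and CELF2 2.06-fold higher. Over the 3 lines, edgeR's test with Benjamini-Hochberg adjustment called 9 of the 13 higher in the precipitate and 3 lower, against 31.3% and 32.7% of all genes. RC3H1 (roquin-1), a stem-loop binding decay factor, was 11.5-fold over input in shControl, while YBX1, HNRNPDL and ZC3H12A were the 3 lower. Recovery in shHuR against shControl was lower for 6 of 13 and higher for 1 (23.5% and 39.4% of all genes), with YBX1 (3.74-fold), FUBP3 (3.60-fold) and HNRNPAB (3.24-fold) lowest. These 3 were not lower in shHuR alone. In shADAR1, against the same shControl libraries, recovery was lower for 4 of 13 and higher for 0 (14.2% and 19.7% of all genes). The 4 were YBX1 (2.85-fold), FUBP1 (1.82-fold), FUBP3 (1.77-fold) and HNRNPAB (1.66-fold).

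Enzymes and transport factors that act on HuR, tristetraprolin and KSRP numbered 20. In the RNA-seq pair ANP32B, a HuR ligand, was 2.03-fold higher and the kinase MAPK11 3.46-fold lower, 1 of 20 each way against 8.31% and 7.71% of all genes. In the shADAR1 input 0 were higher and 4 lower, where 10.3% of all genes were lower: MAPKAPK3 (3.24-fold), MAPK11 (2.09-fold), ANP32B (2.02-fold) and SET (2.02-fold). The shHuR input also had 4 lower, near the 15.6% of all genes: CDK1 (20.9-fold), ANP32B (2.26-fold), SET (2.18-fold) and MAPKAPK3 (2.02-fold). ANP32B thus differed in direction between the experiments.

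Deadenylation, decapping and decay partners of these proteins mostly stayed under 2-fold. Of the 18 measured, 0 differed by 2-fold in the RNA-seq pair or the shADAR1 input, and PAN3, a deadenylase subunit, was 2.19-fold lower in the shHuR input. Over the 3 lines, 8 of the 18 were higher and 8 lower in the precipitate by edgeR's adjusted test, against 31.3% and 32.7% of all genes.

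The 30 mRNAs reported elsewhere as AU-rich targets were chosen with results of these data known, and their direction is not independent evidence. By 2-fold, 3 were higher and 4 lower of 25 in the RNA-seq pair, 9 higher and 6 lower of 28 in the shADAR1 input, and 10 higher and 7 lower of 29 in the shHuR input. Over all genes the shares higher and lower were 8.31% and 7.71%, 9.14% and 10.3%, and 12.2% and 15.6%. In the shHuR input the chemokine CXCL8 had 24392 counts against 26 in shControl, and the transcription factor HIF1A was 3.30-fold higher. The precipitate was at least 2-fold over input for 12 and under it for 3 of 25 in shControl, against 30.7% and 38.3% of all genes. In shHuR it was over input for 3 and under it for 8 of 28, against 25.5% and 25.3%. Recovery in shHuR against shControl was lower for 9 of 24, with CXCL8 (7.39-fold) and HIF1A (5.42-fold) among them, and higher for 2, against 23.5% and 39.4% of all genes. The CXCL8 value rests on only 53 precipitate and 26 input counts in shControl, close to the limit of 50.

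The genes most like each binder over the 8 libraries were found by the root mean square (RMS) difference of centred log2 CPM among 10623 genes, and a smaller value means a closer profile. CELF1 was followed most closely by STARD7 and CRKL (RMS 0.13 each), KHSRP by CSK (0.18), and HNRNPD by SOCS5 (0.18) and PARP1 (0.20). For TIA1 the nearest was ELF2 (0.21), for TIAL1, after an ID without a symbol, CDK16 (0.21), for ZFP36L1 CMIP (0.28) and for ZFP36 TSHZ1 and FHL1 (0.28 each). ELAVL1 and ZFP36L2 had the least close neighbours, LDB2 (0.43) and PIM1 (0.60) for ELAVL1, and SMAD3 (0.46) and ZNRF1 (0.50) for ZFP36L2. The median RMS over all genes was 2.25 for ELAVL1 and 1.92 for ZFP36L2. These profiles span both experiments, so likeness includes the difference between RNA-seq and precipitation libraries.

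Reads of other genes could enter these counts only in part. On the annotated exons, ELAVL1 shared 7.59% of its length with a gene on the other strand, HNRNPD 2.91% and CELF1 2.24%. The strand setting of the counting was not given in the sources used here, so reads of these stretches cannot be assigned. On the same strand TIA1 shared 3.19% with C2orf42 and KHSRP 0.482% with MIR3940, which no strand setting would separate. The processed pseudogenes HNRNPDP1, HNRNPDP2 and KHSRPP1 were listed at 0 in all 8 libraries, and reads split between HNRNPD or KHSRP and such copies cannot be judged from counts alone.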

How the data were processed

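Expected counts per gene were deposited by the authors, estimated with RSEM 1.2.3 and named for hg19 (the precipitation files also GRCh37) per the submitters' processing notes, which list DESeq2 for the RNA-seq. The deposited values are whole numbers and were used unrounded. FPKM (fragments per kilobase, scaled to depth) values of the RNA-seq pair were deposited by the authors and served for levels per length and as an alternative. Per the labels' protocols, the KAPA RNA HyperPrep kit served for libraries and the Magna RIP kit for precipitates. The aligner, annotation release and strand setting are not given in the sources used here.

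Groups came from sample titles. The genes and lists were chosen with earlier results of these data known; all 9 genes are named, and from the other lists those that were called, largest first. Symbols came from a gene table (51959 IDs) and GENCODE 29 (342 IDs); DCP1A and PECAM1 were not matched and were not analysed here. Log2 ratios were computed from TMM-scaled counts with exact conditional binomial intervals at 95%, or Poisson error for differences of ratios. Calls needed 2-fold (1.5-fold for recovery between lines) and 50 counts in one library, of each line for recovery, with a prior count of 2. Tests used edgeR 4.0.16 (quasi-likelihood, filter on low counts, Benjamini-Hochberg at 0.05 over all genes), with DESeq2 1.42.0 as an alternative. The edgeR tests were also run on simulated counts. Their dispersion (spread beyond counting error) was set below the fitted common values of 0.150 (knockdown) and 0.0983 (precipitation). That run therefore does not show how the tests perform at the spread of these libraries. The experiment was the block in the knockdown test and the line in the precipitation test; the labels give this pairing, as a block is 1 experiment or 1 line. UTR motifs were read from GENCODE 29 on GRCh38 and no coordinates are given, as the files use hg19. Alternatives were other scalings, low-count limits, prior counts, FPKM, removal of GC and length trends, and leaving out lines. Counting intervals ignore library preparation.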

Additional observations from a re-analysis of the deposited data

Results flagged for a closer look

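In 4 cases a result differed in direction between groups under the same contrast, with counting intervals that lay on opposite sides of 0; with 1 library a group, these differences were not tested. HNRNPD after ADAR1 knockdown had a log2 ratio of 0.083 (0.01 to 0.15) in the RNA-seq pair and -0.61 (-0.69 to -0.53) in the inputs. KHSRP after ADAR1 knockdown stood at 0.40 (0.30 to 0.51) in the RNA-seq pair and at -0.61 (-0.66 to -0.56) in the inputs. The precipitate of ZFP36 against its input was at 0.76 (0.60 to 0.91) in shControl and at -0.69 (-0.97 to -0.41) in shHuR. For TIA1 the same ratio was 1.11 (1.02 to 1.196) in shControl and -0.48 (-0.69 to -0.28) in shHuR. With scaling by total counts ZFP36 stood at -0.12 in shControl, and after trends with GC content and length were taken out TIA1 stood at -0.15 there, so that neither differed in direction under that setting.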

How the results depend on the processing

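Prior count and low-count limit moved none of the 90 ratios of the binders beyond its counting interval, while scaling by total counts moved 55, DESeq2 size factors 31, and removal of GC and length trends 77 beside the reversed one named next. Of the 90, 12 changed sign with total counts (0 of them called) and 13 with the trends removed (1 called: TIA1 over input in shControl, -0.15). In the shADAR1 precipitate, binders lower than in shControl numbered 2 with total counts, 2 with DESeq2 size factors and 0 with the trends removed, against 1. Over input in shHuR, total counts gave 3 higher and 2 lower. With the trends removed, 1 binder was higher in the shADAR1 input and recovery in shADAR1 was lower for 1.

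The knockdown test called 92 genes higher and 24 lower with DESeq2, 140 and 34 without a filter on low counts, and 0 and 0 with no replicate block (edgeR; 85 at an unadjusted p under 0.05; DESeq2 was not run without the block), against 13 and 2; 0 binders passed in all of these. Changes near 0 reversed there: ELAVL1 to 0.00724 with DESeq2 or its size factors and 0.037 without the filter, and CELF1 to 0.00575 without the filter.

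The precipitation test called 2708 genes higher and 8084 lower with total counts, with 1 binder lower, and 3590 and 3020 with no replicate block. Leaving out 1 line in turn gave 2831 (without shADAR1) to 5383 higher and 3589 to 5863 lower. Total counts turned ZFP36 (-0.90), HNRNPD (-0.56) and TIA1 (-0.61) negative; without the shControl line ZFP36 was at -0.31 and TIA1 at -0.055, without the shADAR1 line ZFP36 was at -0.13, and without the shHuR line ZFP36 was at 0.39 and TIA1 at 0.72. The causes were not tested. Other than ZFP36L2, the block changed no binder's call. Depth limited ZFP36 most.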
